A study of Homo sapiens with 2 samples.

Results

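Oncofetal genes are as a rule active in the fetal liver, low or silent in the adult organ and often switched on again in liver cancer. Several therefore serve as tumour markers, though not every gene named below falls silent in adult tissues. The group described here holds 10 genes: AFP, GPC3, DLK1, IGF2, H19, LIN28B, IGF2BP1, IGF2BP2, IGF2BP3 and PEG10, 8 of them among the 19775 genes with a probe set of their own on this array and 2, IGF2 and H19, read only by probe sets shared with another gene. They were taken by name, and every probe set annotated to them was kept, which gave 22 probe sets. Of these, 17 belonged to 1 member alone. The other 5 were shared, 3 between IGF2 and INS-IGF2 and 2 between H19 and MIR675, and they are described apart.

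RNA came from Huh-7 cells, an established human hepatoma line, and was hybridised to Affymetrix expression arrays, 1 for each condition. The treated culture was exposed for 6 hours, after 24 hours of incubation, to 100 U/mL of recombinant human interferon-alpha 2b, and the untreated culture received a change of medium alone. Both cultures were grown in the same serum-containing medium, and each group is 1 flask of 1 cell line. There is no replicate check, no test was possible and no p-value is given.

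The members act at different steps of a fetal growth programme. AFP is the albumin-like carrier protein of fetal plasma, and GPC3 is a cell surface heparan sulfate proteoglycan. IGF2 is a growth factor that signals through the IGF1 and insulin receptors, while DLK1 is a membrane protein of the Notch ligand family found on fetal hepatoblasts. IGF2, H19, DLK1 and PEG10 are imprinted, that is, transcribed in many tissues mainly from the allele of 1 parent. Allele use in these cells was not measured. LIN28B is an RNA-binding protein that blocks maturation of the let-7 microRNAs, and the IGF2BP proteins bind and stabilise mRNAs, among them transcripts that let-7 represses.

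Short reference sequences show what the comparison concerns. The first pair sets the promoter of AFP, the brightest member, beside that of ISG15, an interferon-response gene. Capitals mark the TATA element (TATAAA) in AFP and, in ISG15, 2 overlapping matches to the core of the interferon-stimulated response element (GAAA, any 2 bases and GAAA again), the site that the interferon-activated factor ISGF3 binds. Each stretch is the 130 bases before the start site, from RefSeq on GRCh38.p14, on the plus strand at chr4:73436091-73436220 and chr1:1013367-1013496.
AFP promoter stretch: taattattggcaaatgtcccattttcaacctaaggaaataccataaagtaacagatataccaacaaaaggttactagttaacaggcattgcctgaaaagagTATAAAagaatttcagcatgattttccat
ISG15 promoter stretch: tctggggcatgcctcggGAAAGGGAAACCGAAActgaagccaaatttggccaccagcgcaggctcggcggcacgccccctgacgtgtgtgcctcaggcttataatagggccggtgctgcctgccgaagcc

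Promoter windows of 300 bases, 250 before to 50 after the start, matched 5 of the 10 members in 7 windows (AFP, H19, IGF2BP3 and 2 each for LIN28B and IGF2BP2). GPC3, DLK1, IGF2, IGF2BP1 and PEG10 were not matched. That core, searched on both strands, was in 0 of these 7 windows and in 3.57% of all 35116 windows. It was in 5 of 7 windows of the interferon-response genes ISG15, IFIT1, MX1, IRF9 and IFI6. The IRF9 window and 1 MX1 window lacked it, and in another MX1 window the match lay after the start, at position 12. TATAAA was in 2 of the 7 member windows, with AFP at position -29 and IGF2BP2 at -222 of 1 window, and in 11.5% of all windows. A match or its lack describes these windows only.

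The second set shows the microRNAs tied to LIN28B and H19, which this array did not measure. In let-7a-5p and miR-675-5p the capitals mark the seed, bases 2 to 8, which pairs with target mRNAs. In the let-7g hairpin they mark GGAG, the motif that LIN28 proteins bind in the loop of let-7 precursors. It lay in the loop of 8 of 11 let-7 family hairpins of RefSeq that had both arms listed, and not in that of MIR98, MIRLET7A3 or MIRLET7B. Positions are chr9:94175962-94175983 on the plus strand for let-7a-5p (its copy in MIRLET7A1), chr3:52268278-52268361 on the minus strand for let-7g and chr11:1996800-1996822 on the minus strand for miR-675-5p, all on GRCh38.p14.
hsa-let-7a-5p: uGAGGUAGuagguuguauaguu
let-7g hairpin: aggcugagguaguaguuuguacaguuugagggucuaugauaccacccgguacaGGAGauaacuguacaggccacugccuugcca
hsa-miR-675-5p: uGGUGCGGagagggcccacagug

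Values are intensities on a linear scale, as deposited. Ratios were taken after every value under 48.46, the median (50th percentile) over both arrays together, had been raised to that floor. A gene was represented by its probe set of highest mean log2 intensity. It was counted if that probe set exceeded the floor on at least 1 array. Brightness also depends on the probes, so ranks describe this array and are no measure of transcript number between genes. In a bulk sample, a change in the number of cells that carry a transcript and a change in its amount per cell cannot be told apart.

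All 8 genes with a probe set of their own exceeded the floor with and without interferon, and 5 of them lay in the brightest of 10 groups of genes cut by brightness. In order of untreated intensity they were AFP, GPC3, LIN28B, PEG10, DLK1, IGF2BP2, IGF2BP3 and IGF2BP1, with ranks from 14 to 4643 among 19775 genes. With interferon-alpha none reached a 2-fold difference in either direction. Over all 13269 counted genes the share past 2-fold was 0.43% in the higher direction and 0.0% in the lower, so a count of 0 among 8 members is near the background and is no result particular to them. At 1.5-fold (background 0.754% higher and 0.0829% lower) and at 1.2-fold (3.9% higher and 3.71% lower) the members' counts were also 0.

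**Figure D1:**
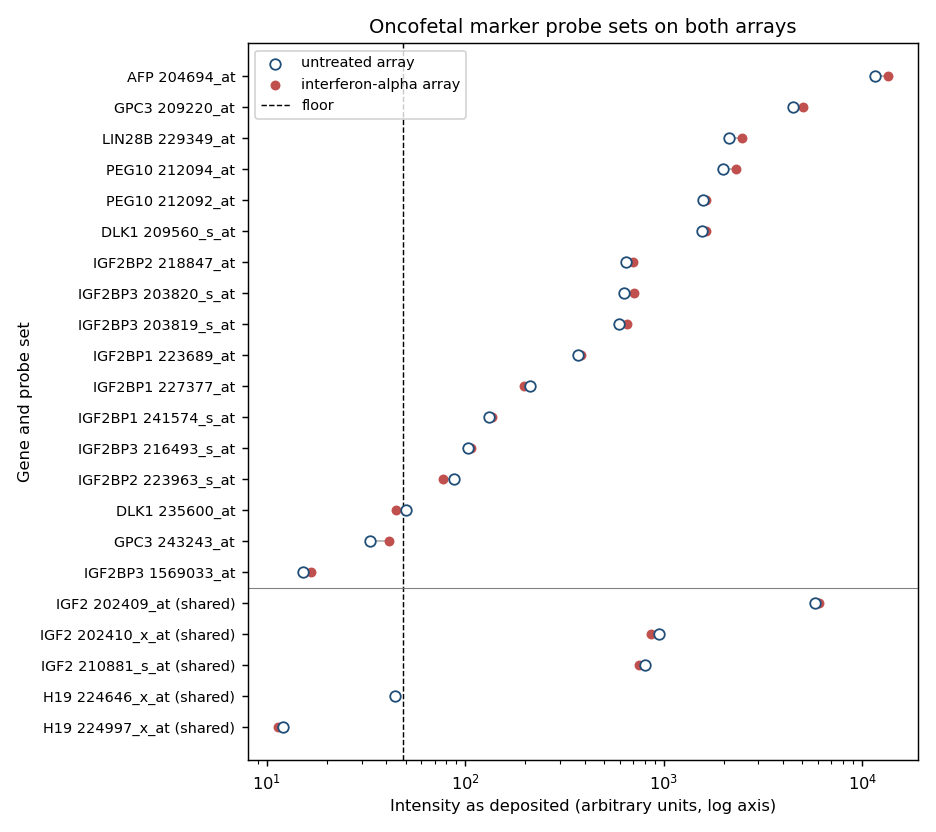
Deposited intensity (log axis) of each of the 22 probe sets on the untreated array (open circles) and the interferon-alpha array (filled circles), with the floor of 48.46 as a dashed line and shared probe sets below the horizontal line. AFP stands at the bright end at 11588 and 13478, the 2 H19 probe sets lie below the floor, and within each row both circles lie close together beside the spread between probe sets.

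AFP had an intensity of 11588 on the untreated array and 13478 on the interferon array. Its single probe set, 204694_at, was the 14th brightest gene of the untreated array and the 11th of the interferon array. The nearest genes in the untreated order were the ribosomal protein genes RPS19 (11700) and RPS16 (11237). The interferon value was 1.16-fold the untreated one (log2 0.22). ALB, its adult relative and neighbour in the same gene family, had 12212 and 14588 (log2 0.26), while AFM, another relative, was below the floor at 13.2 on both arrays. When probe sets with names in _x_at or _s_at, which can read related transcripts, were left out, 17098 genes remained and AFP was at rank 2 of them, with its own value the same.

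Genes known to regulate AFP were all above the floor, and none differed by 1.2-fold. Of 12 such genes, 9 had a probe set of their own, and their log2 ratios lay between 0.02 and 0.24 with a median of 0.10. The brightest were the transcription factors CEBPA (4540 untreated and 4878 with interferon) and CEBPB (2823 and 3261). ZBTB20, a repressor that takes part in silencing AFP after birth, had 368.8 and 434.4 (log2 0.24), the highest ratio of the list. ZHX2, another postnatal repressor of AFP, had 577.6 and 586.3 (log2 0.02), and the lowest ratio was that of FOXA3 (1084 and 1099, log2 0.02).

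Among the 8 members with a probe set of their own, GPC3 was next after AFP, at 4480 untreated and 5027 with interferon on 209220_at. Its ratio was 1.12-fold (log2 0.17). Its rank was 185 on the untreated array and 186 on the interferon array. The other GPC3 probe set, 243243_at, stayed under the floor, at 33.0 and 41.5. The brightness of GPC3 therefore also rests on 1 probe set.

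Of the 5 other glypicans, 4 were above the floor, and GPC6 was the brightest at 375.3 and 427.4 (log2 0.19). GPC1 had 110.2 and 104.0, GPC2 68.1 and 70.3, and GPC4 50.1 and 50.3, while GPC5 lay below the floor at 14.08 and 11.95. The sulfatases SULF1 and SULF2, which modify the heparan sulfate chains of glypicans, were also below the floor on both arrays. EXT1, a polymerase of these chains, was the brightest of the 10 listed genes at 650.6 and 756.8 (log2 0.22, the highest of the list), followed by EXT2, its partner in that polymerase, at 411.6 and 431.1 (log2 0.07). The lowest ratio was that of NDST1 (396.7 and 361.6, log2 -0.13). None of the 7 counted genes differed by 1.2-fold, and their median log2 ratio was 0.05.

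IGF2 was read by shared probe sets only, which cannot separate it from the read-through transcript INS-IGF2. The brightest, 202409_at, had 5771 untreated and 6082 with interferon (log2 0.08) and was the 248th of 54613 probe sets on the untreated array. The other probe sets lay lower and had ratios on the other side of 0. For 202410_x_at the intensities were 949.4 and 866.2 (log2 -0.13), and for 210881_s_at they were 808.8 and 747.8 (log2 -0.11). The 3 thus spanned 0.21 on the log2 scale, above the median span of 0.14 (0.135) in the 5912 genes that had more than 1 probe set over the floor.

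Among 15 listed partners of IGF2, the receptors were above the floor, and with the deposited scaling the adaptors IRS1 and IRS2 lay at opposite ends of the list. IGF2R, the receptor that clears IGF2, had 938.8 and 948.8 (log2 0.02), INSR 241.3 and 258.3 (log2 0.10) and IGF1R 121.8 and 139.6 (log2 0.20). IRS1 had 274.3 and 336.5 (1.23-fold, log2 0.30), the only one of 14 counted genes at least 1.2-fold higher. IRS2 had 212.5 and 174.5 (log2 -0.29), the only one at least 1.2-fold lower. IGFBP2, a binding protein made by fetal liver, was the brightest of the list at 1057 and 1103, and IGF1, a growth factor made by the adult liver, had 89.9 and 100.3. The list's median log2 ratio was -0.03, and all counted genes had a median of 0.03.

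H19, a long noncoding RNA and the imprinted neighbour of IGF2, was below the floor in both of its probe sets, which it shares with its own microRNA, MIR675. The probe set 224646_x_at had 44.1 on both arrays, identical to every deposited digit, and 224997_x_at had 12.05 and 11.42. Such ties occurred in 4.32% of all probe sets, and how they arose is not known. H19 is therefore the exception among the 10 genes, as neither of its probe sets exceeded the floor. That floor is the median of the arrays and no detection call. The probe set 224646_x_at lay just under it, within the brightest 52.5% of probe sets on the untreated array. Whether H19 is on in these cells cannot be told from these values.

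DLK1 had 1551 untreated and 1629 with interferon on 209560_s_at, or 1.05-fold (log2 0.07). Its rank was 985 on the untreated array and 1027 on the interferon array. A second probe set, 235600_at, lay at the floor with 50.5 and 44.9, and if _x_at and _s_at probe sets are left out it stands for the gene, at rank 9817 and with a log2 ratio of -0.06. The brightness of DLK1 therefore rests on 1 probe set.

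Of 12 genes of the Notch pathway, in which DLK1 acts as a noncanonical ligand, 11 were counted and none differed by 1.2-fold. The ligand gene JAG1 was the brightest at 2057 and 2228 (log2 0.12), followed by RBPJ, the DNA-binding partner of Notch, at 1025 and 1011 (log2 -0.02). The highest log2 ratio was 0.23, in DLK2 (122.7 and 143.6), the close relative of DLK1, and the lowest was -0.11, in JAG2 (94.7 and 87.8). The median was 0.02.

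PEG10, a domesticated retrotransposon gene needed in the placenta, was bright on both of its probe sets. The probe set 212094_at had 1992 untreated and 2300 with interferon (1.15-fold, log2 0.21), and 212092_at had 1572 and 1628 (log2 0.05). Their span of 0.16 was near the median span between probe sets of a gene. The ranks of PEG10 were 693 untreated and 648 with interferon.

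Imprinted genes outside the group differed in brightness. SGCE, which shares a promoter region with PEG10, had 779.1 and 861.1 (log2 0.14), and MEST was the brightest at 1346 and 1378 (log2 0.03). MEG3, the noncoding RNA of the DLK1 domain, had 116.9 and 112.1, whereas PEG3, SNRPN and DIRAS3 were below the floor on the probe sets used. Of 11 counted genes KCNQ1OT1 was at least 1.2-fold higher, at 86.8 and 123.3 (1.42-fold), and NNAT at least 1.2-fold lower, at 74.9 and 62.3 (log2 -0.27). The median log2 ratio was 0.09.

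LIN28B had 2124 untreated and 2471 with interferon on its only probe set, 229349_at, or 1.16-fold (log2 0.22), and ranked 640 and 603. The values differ by exactly 347.0, with the same decimals on both arrays. A difference that was a whole number to within 1e-05 occurred in 1.7% of probe sets, ties not included. Its relative LIN28A was below the floor at 12.4 and 13.0, so that of the 2 LIN28 genes only LIN28B was above it.

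Of 12 listed genes of the LIN28 and let-7 pathway, LIN28A included, 10 were counted, with a median log2 ratio of 0.07 and none past 1.2-fold. HMGA2, a chromatin protein of embryonic cells whose mRNA carries many let-7 sites, had 2611 and 2824 (log2 0.11), the brightest of the list, and HMGA1 had 2323 and 2419 (log2 0.06). MYCN had the highest ratio, at 691.6 and 792.7 (log2 0.20), and ARID3B the lowest, at 377.3 and 367.8 (log2 -0.04). TRIM71, a stem cell ubiquitin ligase and let-7 target, had 1509 and 1529. TUT4, which adds uridines to let-7 precursors bound by LIN28, had 293.3 and 303.3 (log2 0.05), and DICER1, the enzyme that cuts them, had 197.0 and 219.4 (log2 0.16).

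The 3 IGF2BP genes were the dimmest members above the floor. IGF2BP2, the member of the family that persists in adult tissues, had 643.4 untreated and 701.4 with interferon on 218847_at (1.09-fold, log2 0.12), and IGF2BP3 had 631.0 and 707.4 on 203820_s_at (1.12-fold, log2 0.165). IGF2BP1 had 367.7 and 381.6 on 223689_at (1.04-fold, log2 0.05). The ranks were 2776, 2835 and 4643, and with 1 array the order of IGF2BP2 and IGF2BP3 cannot be told apart.

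Other probe sets of these genes gave lower intensities and, for IGF2BP1 and IGF2BP2, ratios on the other side of 0. For IGF2BP2, 223963_s_at had 87.9 and 77.6 (log2 -0.18), so its 2 probe sets spanned 0.30, the widest span of any member and below the 90th percentile of 0.34 in that set of genes. For IGF2BP1, 227377_at had 212.9 and 198.0 (log2 -0.105) and 241574_s_at had 131.0 and 137.1 (log2 0.065). IGF2BP3 had 592.4 and 654.9 on 203819_s_at, 103.4 and 106.4 on 216493_s_at, and was below the floor on 1569033_at at 15.2 and 16.6. Its 3 probe sets above the floor had log2 ratios from 0.042 to 0.165.

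With the deposited scaling the chosen probe sets of all 8 members were slightly brighter with interferon, by 0.05 to 0.22 on the log2 scale and by 0.17 (0.166) at the median, and centring on the hybridisation controls put all 8 below 0. The median over all counted genes was 0.03, and 59.7% of 12742 genes exceeding the floor on each array had a ratio above 0. Bright genes as a whole were higher on the interferon array. Ordered by mean intensity and cut into 10 groups of like size, these genes had in the brightest group a median of 0.14, with 96.2% above 0 and a central 95% from -0.02 to 0.29. Its members were AFP (86.1th percentile of its ratios), LIN28B (86.4th), PEG10 (83.2th), GPC3 (64.1th) and DLK1 (18.4th). In their own brightness groups IGF2BP3 stood at the 87.0th percentile, IGF2BP2 at the 77th and IGF2BP1 at the 53.5th. Thus 7 of 8 members were above the median of their brightness group, which as many genes exceed as fall below, and each lay within its central 95%. The groups match brightness only roughly, since the brightest began at a mean intensity of 1323 and also held AFP. Under lowess scaling, which follows the trend with brightness, its members ran from -0.044 (DLK1) to 0.086 (LIN28B), with AFP at 0.004.

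**Figure D2:**
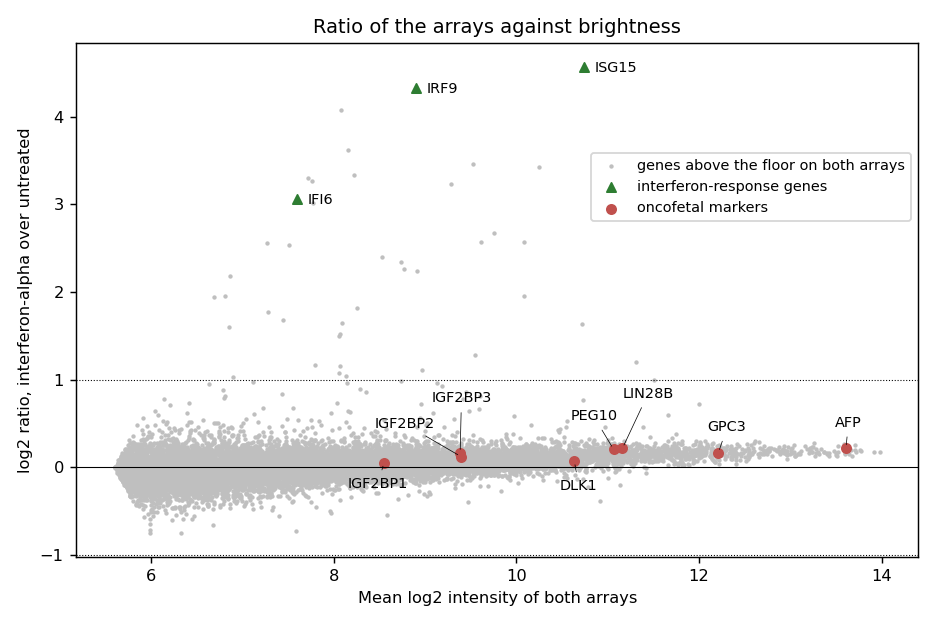
The log2 ratio of interferon-alpha over untreated against the mean log2 intensity of both arrays, for 12742 genes brighter than the floor on each array (grey), the 8 oncofetal markers (circles) and 3 interferon-response genes (triangles), with dotted lines at a 2-fold difference. With the deposited scaling the markers lie between 0.05 and 0.22 (all below 0 after centring on the hybridisation controls) inside the cloud of all genes, whereas ISG15, IRF9 and IFI6 stand at 4.57, 4.33 and 3.06.

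The sign of the members' ratios depended on how the arrays were scaled. The 18 probe sets of the hybridisation controls (bioB, bioC, bioD and cre), bacterial and phage sequences added to the sample before hybridisation, had a median log2 ratio of 0.43, and centring on them turned all 8 members below 0, from -0.37 to -0.21, where the median over all genes above the floor became -0.39. Quantile scaling put GPC3 (-0.006), DLK1 (-0.05) and IGF2BP1 (-0.012) below 0. Lowess scaling put DLK1 (-0.04) below 0 and GPC3 within rounding of 0 (-0.0). With median scaling all 8 stayed above 0, from 0.08 to 0.24. The same constant of 0.43 turns any smaller positive ratio given here, those of the related genes included, below 0. No scaling brought a member to a 2-fold difference. The shared IGF2 probe sets 202410_x_at and 210881_s_at were below 0 with the deposited values and under each scaling, whereas 202409_at was above 0 as deposited and with median scaling alone.

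**Figure D3:**
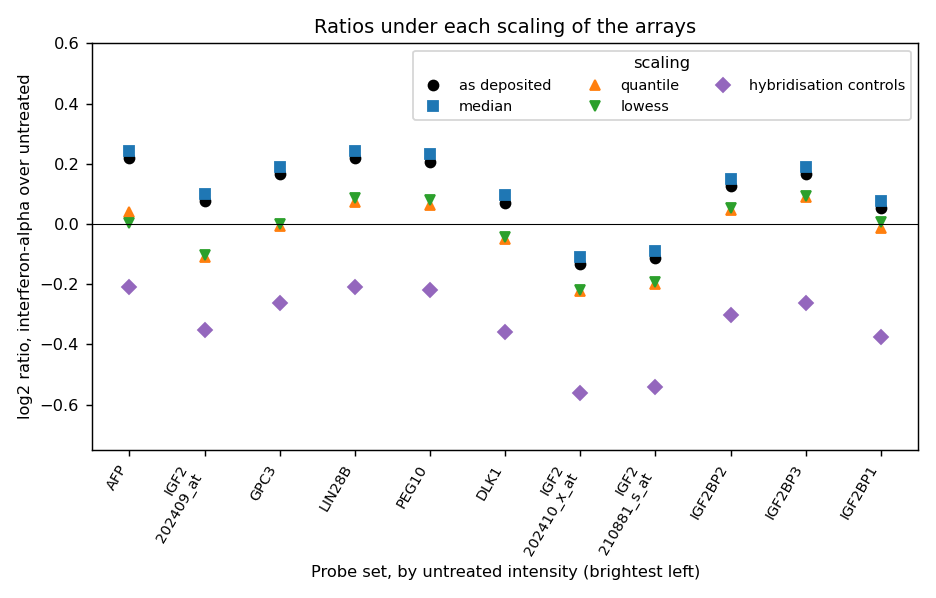
The log2 ratio of interferon-alpha over untreated for the chosen probe set of each of 8 oncofetal markers and the 3 shared IGF2 probe sets, under the deposited scaling and 4 others. AFP runs from -0.21 to 0.24 across the scalings, and the lowest point is that of 202410_x_at at -0.56.

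Interferon-response genes on the same arrays give the size of a response. ISG15 had 351.2 untreated and 8332 with interferon, IRF9 106.7 and 2143, IFI6 67.0 and 558.7, and IFIT1 and MX1, below the floor without interferon at 25.3 and 44.0, had 3125 and 818.2. All 5 exceeded 2-fold. Hepatocyte markers were bright, with 9 of 10 listed genes measured at untreated intensities from 3000 (TTR) to 12212 (ALB), APOA2 being next to ALB at 10355 and 11529, and none was below the floor on either array. Their median log2 ratio was 0.17, near that of the oncofetal markers, with APOB the highest (0.29) and TTR the lowest (0.10). Of 10 markers of leukocytes, endothelium and stellate cells, 7 were counted as above the floor, and PTPRC, CD3E and ACTA2 were below it. LYZ was the brightest at 2064 and 2271, followed by COL1A2 at 544.3 and 559.9. On the untreated array COL1A1 had 176.35, PECAM1 157.95, CD79A 104.94 and CD14 91.08. VWF had the lowest ratio (log2 -0.42). The part of these markers in any result was not tested.

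Of 14 other genes used as hepatoma markers, 12 were counted and 2 were below the floor. CD24 (5709 and 6667, log2 0.22) and the secreted trypsin inhibitor SPINK1 (5599 and 6415, log2 0.20) were the brightest. The growth factor MDK had 2810 and 3058, and the Golgi protein GOLM1 had 878.1 and 943.4. SALL4, a fetal transcription factor, had 175.6 and 173.3, which was the lowest ratio (log2 -0.02), the telomerase gene TERT had 147.4 and 145.6, and AKR1B10 was below the floor at 45.8 and 47.3. ACSL4 had the highest ratio (462.5 and 564.9, log2 0.29). It alone of 12 counted genes was past 1.2-fold, where 3.9% of all counted genes were higher and 3.71% lower. The list median was 0.09.

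**Figure D4:**
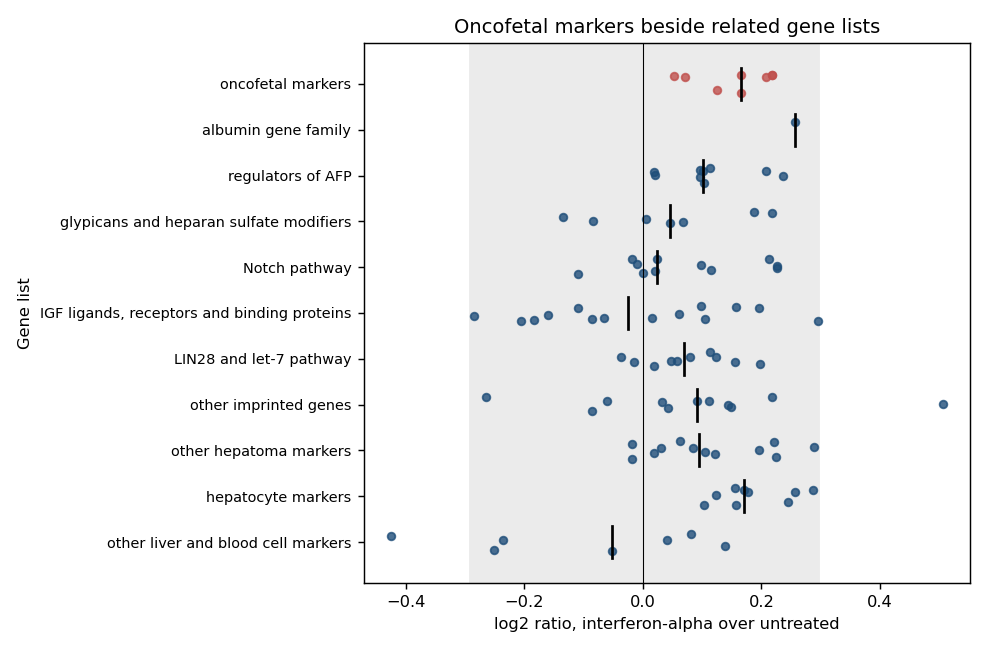
The log2 ratio of interferon-alpha over untreated of each counted gene (points) in the oncofetal markers and 10 related lists, with the list median as a black bar and the central 95% of genes brighter than the floor in both cultures (-0.29 to 0.30) shaded. With the deposited scaling the oncofetal markers lie between 0.05 and 0.22 (all below 0 after centring on the hybridisation controls), with a median of 0.17, and KCNQ1OT1 and VWF are the points outside the shading.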

How the data were processed

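The authors deposited linear intensities for 54675 probe sets on each array, 62 of them controls. Per the submitters' processing notes the authors used GCOS, the Affymetrix scanner software; for its version, background correction, probe summary and scaling the sources used here give nothing. Means without the lowest and highest 2% of values were 159.2 (untreated) and 166.8 (interferon-alpha), so the arrays do not share a scale by that measure. No detection calls were used.

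The platform annotation gave the gene names (41091 with 1 gene, 1801 with several, 11721 unnamed here), with symbols updated through the gene ID. Log2 ratios with a floor, ranks and counts were computed in Python 3.11.15 with pandas 2.3.3 and statsmodels 0.14.6 (lowess fraction 0.3), and the procedure was tested on simulated data. Precision is limited by 1 array per group. Named genes were all members, all interferon-response check genes, the rank neighbours of the brightest member and, of each related list, those past 1.5-fold, the 2 brightest and the highest and lowest ratio; other list genes named for their function were chosen after their values were seen. Members, lists and alternatives were chosen with earlier results of these data known. Alternatives were the floor, pseudocounts, scaling, probe set choice and fold threshold.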

Additional observations from a re-analysis of the deposited data

How the results depend on the processing

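The counts of members past 2-fold, 0 upward and 0 downward, held under every alternative run, namely 2 other floors, pseudocounts of 1 and 16, 4 scalings, 3 choices of probe sets and thresholds of 1.5-fold and 1.2-fold. The median log2 ratio over the members was 0.17 with the deposited scaling. It moved by more than the robust SD of all genes' log2 ratios (0.13, not a replicate error) to 0.03 with lowess scaling and to -0.26 after centring on the hybridisation controls, and it lay between 0.045 and 0.19 otherwise. When _x_at and _s_at probe sets were left out, 17098 of 19775 genes were ranked and IGF2BP3 was not counted. All 8 single ranks then moved by over 1.5 times: IGF2BP3 from 2835 to 14551 and DLK1 from 985 to 9817, AFP from 14 to 2, GPC3 from 185 to 56, LIN28B from 640 to 256, PEG10 from 693 to 281, IGF2BP2 from 2776 to 1510 and IGF2BP1 from 4643 to 2748. Taking the median over the probe sets of a gene turned the log2 ratio of IGF2BP2 to -0.03. It also put AFP at rank 8, GPC3 at 359 and LIN28B at 394. The median rank of the members, which hides these moves, lay between 839 and 951 with the main and 3 other choices of probe sets. With 1 array per group no replicate could be left out. No paired analysis was possible because each group has 1 array. Dim probe sets near the floor limit GPC3, DLK1, IGF2BP3 and H19.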
